A study of Mus musculus with 6 samples.

Results

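Opposite-strand long non-coding RNA (lncRNA) genes are non-coding genes named for the protein-coding gene that lies on the other DNA strand beside or over them, such as Foxl2os for Foxl2. The set described here took every gene whose name ends in os or in os and a number, whose listed transcripts all had RefSeq non-coding accessions, that lay on an autosome, and whose partner gene was listed too. Of 255 names with that ending that are not microRNA hosts by name, 220 had only non-coding accessions, 217 of these were autosomal and 216 had a partner, out of 50348 gene names in the series. The 216 lncRNA genes had 201 distinct partners, since some partners carry several numbered lncRNAs. Strand was known for both genes in 211 pairs, and in all 211 the genes lay on opposite strands, as their names say. For the other 5 pairs the strand was not matched.

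Gene expression was measured by RNA sequencing in mouse pituitary, with 1 library for each of 6 groups and hence no replicates. The adult sorted libraries held fluorescent cells from 42 pooled Tshbcre-YFP glands, 12 pooled Ghcre-YFP glands and 7 pooled Lhbcre-YFP glands, and the adult comparison was 1 nontransgenic gland with all its cells, all at 7 weeks of age. The young libraries, at postnatal day 7 (P7), held sorted fluorescent cells of 5 pooled Tshbcre-YFP glands, compared with 8 nontransgenic glands with all their cells. In these mice Cre is driven by the thyroid-stimulating hormone beta, growth hormone or luteinizing hormone beta promoter and switches on YFP, so a sorted cell expresses the driver or descends from a cell that did.

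Levels are FPKM, that is, fragments for each kilobase of a transcript and relative to all fragments mapped in that library. They are per length, so genes can be set side by side, and after division by 1 factor for each library they are called scaled FPKM. A level of 1 scaled FPKM was used as the floor for calling a gene present. With 1 library per group there is no test, and a gene was called apart in a comparison if its log2(scaled FPKM + 1) differed 4-fold or more and the higher of the libraries was at the floor or above. That scale understates the difference of low genes. Folds are on it unless the plain scale, with no 1 added, is named. An FPKM listed at 0 is a result of assigning reads to transcripts and was not read as absence. No fold is given against a library listed at 0, and the size of a log2 difference against such a library is set by the pseudocount of 1. Where it bears on a value, a second value is given in which transcripts that the assembler left unnamed are added to the gene that holds them ("with assembled transcripts").

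Depth, relative to the adult whole gland at 1, was 1.16 in adult Tshbcre, 2.73 in adult Ghcre, 2.23 in adult Lhbcre, 1.15 in P7 Tshbcre and 1.21 in the P7 whole gland. The deposited Ghcre table ended on chromosome 5, so 47 of the 216 lncRNA genes, Foxl2os among them, were not measured in it. Tshb, the hormone gene of thyrotropes, was at 1075 scaled FPKM in adult Tshbcre against 33.1 in the adult whole gland, and at 3001 in P7 Tshbcre against 61.0 in the P7 whole gland. The Tshbcre libraries held other hormone genes at high levels. In adult Tshbcre the somatotrope markers summed to 14818 scaled FPKM, with no like sum in the adult whole gland, which listed 2 of the 3. The lactotrope markers summed to 6549, against 17603 in the adult whole gland, and the gonadotrope markers to 3886, against 831. In P7 Tshbcre the somatotrope markers summed to 3874, against 6054 in the P7 whole gland, and the gonadotrope markers to 1768, against 412. Lhb was at 2198 scaled FPKM in adult Lhbcre against 637 in the adult whole gland. Gh, the gene that defines the Ghcre lineage, was not listed in the Ghcre table, so that label could not be checked with it. No label gives the sex of the mice. Xist, transcribed from the inactive X chromosome, was high in adult Lhbcre and near 0 in adult Tshbcre and the adult whole gland, and the Y-linked Ddx3y was at 0.0122 in adult Lhbcre, against 2.61 in the adult whole gland. The Lhbcre library therefore stands apart from the other adult libraries that list these genes in its sex-linked genes. In a whole gland against a sorted library, fewer cells of a type and less RNA per cell cannot be told apart.

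Transcription from a protein-coding promoter often runs in both directions, and many opposite-strand lncRNAs start head to head with their partner, while others run through the partner's body or lie at its far end. Some antisense RNAs act on the gene beside them, some act elsewhere and for many no function is known. In the pituitary, Foxl2 and Six3 are the best known partners of this set: FOXL2 is a forkhead transcription factor of gonadotropes and thyrotropes that is needed for Fshb, and SIX3 is a homeodomain factor of the forebrain, eye and early pituitary.

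The start regions of Foxl2os and Foxl2 are shown first because both lie in a single stretch of DNA, read from opposite strands. The windows run from 250 bases before to 50 bases after each annotated start, 5′ to 3′, from RefSeq on GRCm38.p6, with GC boxes (GGGCGG, on either strand) in capitals. The Foxl2os window is chr9:98955261-98955560, minus strand, and the Foxl2 window is chr9:98955357-98955656, plus strand.
Foxl2os: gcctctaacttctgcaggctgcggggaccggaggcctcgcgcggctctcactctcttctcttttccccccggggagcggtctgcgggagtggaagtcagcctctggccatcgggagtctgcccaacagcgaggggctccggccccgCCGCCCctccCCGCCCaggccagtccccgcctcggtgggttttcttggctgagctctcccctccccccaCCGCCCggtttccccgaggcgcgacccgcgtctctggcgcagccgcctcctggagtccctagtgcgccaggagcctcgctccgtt
Foxl2: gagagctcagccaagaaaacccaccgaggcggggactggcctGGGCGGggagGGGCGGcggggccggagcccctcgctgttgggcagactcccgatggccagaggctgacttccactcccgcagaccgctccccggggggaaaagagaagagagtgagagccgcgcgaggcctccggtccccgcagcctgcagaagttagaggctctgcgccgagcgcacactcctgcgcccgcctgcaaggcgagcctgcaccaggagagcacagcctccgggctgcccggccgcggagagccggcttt

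These 2 windows shared 204 bases, in which each is the reverse complement of the other, so the 2 GC boxes of the Foxl2 window are also boxes of the Foxl2os window, which held 3. Neither window held TATAAA. The letters GGGCGG, on either strand, were found in 35.7% of all 32851 windows of this kind.

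Etaa1os and Rab26os are shown next, as a lncRNA that starts head to head with its partner and one that does not. Capitals mark the TATA box, whose letters are TATAAA, the CCAAT box, named for its letters, and the GC box, on either strand. The Etaa1os window is chr11:17953720-17954019, plus strand, and the Rab26os window is chr17:24528001-24528300, plus strand.
Etaa1os: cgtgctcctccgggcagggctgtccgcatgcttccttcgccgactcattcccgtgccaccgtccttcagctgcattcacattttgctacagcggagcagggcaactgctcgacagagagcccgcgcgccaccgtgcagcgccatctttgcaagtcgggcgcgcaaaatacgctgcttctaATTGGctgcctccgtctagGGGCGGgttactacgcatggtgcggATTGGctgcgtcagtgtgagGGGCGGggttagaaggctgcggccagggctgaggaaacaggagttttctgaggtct
Rab26os: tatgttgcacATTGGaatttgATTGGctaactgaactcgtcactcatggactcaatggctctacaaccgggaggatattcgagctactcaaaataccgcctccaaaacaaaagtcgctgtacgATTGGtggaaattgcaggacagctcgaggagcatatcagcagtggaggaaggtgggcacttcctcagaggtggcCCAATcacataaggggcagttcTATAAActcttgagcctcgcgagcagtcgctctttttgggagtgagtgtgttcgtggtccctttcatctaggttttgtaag

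Rab26os had 1 TATA box and 4 CCAAT boxes and no GC box. Etaa1os had 2 CCAAT boxes and 2 GC boxes and no TATA box. Among all windows, 13.6% held TATAAA and 37.4% held CCAAT, on either strand. Six3os1, the lncRNA that was lower in every sorted library, had 1 CCAAT box and 1 GC box in its window, chr17:85618347-85618646, minus strand, with capitals as before.
Six3os1: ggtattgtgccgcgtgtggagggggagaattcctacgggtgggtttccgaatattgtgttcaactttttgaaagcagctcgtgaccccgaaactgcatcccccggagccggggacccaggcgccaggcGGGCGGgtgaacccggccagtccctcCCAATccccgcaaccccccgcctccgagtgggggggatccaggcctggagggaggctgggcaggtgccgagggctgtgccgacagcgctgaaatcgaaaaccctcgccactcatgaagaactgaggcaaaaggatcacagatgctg

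RefSeq windows matched 172 of the 216 lncRNA genes, with 208 windows. Windows of lncRNAs that start within 1 kb of the partner's start had a median of 17 CpG dinucleotides, against 5 for those with starts farther apart. The medians were 18 in windows of the partners and 4 in windows of other autosomal RefSeq lncRNA genes. GC boxes followed the same order, in 45.7% of the near windows, 17.3% of the far windows, 50% of the partners' windows and 16.1% of the windows of other lncRNA genes. Near windows overlap those of the partners where the starts are close, so these values are not independent of the partners'. TATAAA was in 7.69% of the lncRNA windows and in 15.4% of those of other lncRNA genes. A match of letters is a description and no evidence of binding.

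Most of the 216 lncRNA genes were low or not seen. In at least 1 library 45 of them (20.8%) reached the floor, 91 were above 0 but under it everywhere, and 80 (37.0%) were listed at 0 in every library. Of the 201 partners, 146 (72.6%) reached the floor. Of 11555 other autosomal RefSeq lncRNA genes, 1748 (15.1%) did. The floor was reached by 26 lncRNA genes in adult Tshbcre, 24 in adult Ghcre, 22 in adult Lhbcre, 19 in the adult whole gland, 28 in P7 Tshbcre and 14 in the P7 whole gland. The Ghcre number covers 169 listed genes.

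The levels of all 216 summed to 153 scaled FPKM in adult Tshbcre, 139 in adult Lhbcre and 103 in the adult whole gland, and to 136 in P7 Tshbcre and 99.5 in the P7 whole gland. The 3 highest held 35.3% of that sum in P7 Tshbcre and 42.7% to 48.4% in the other libraries. Rab26os was among the 3 highest in all 6 libraries. Only 5 lncRNAs reached 10 scaled FPKM anywhere, namely Foxl2os, Fam120aos, Rab26os, Fam219aos and Brip1os. Just above the floor, 15 of the 45 had a highest value between 1.01 and 1.44, and the lncRNA nearest below it reached 0.994.

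The share detected differed between arrangements of the pair, as a description with no test. Among lncRNAs whose start lay within 1 kb of the partner's start 25 of 77 (32.5%) reached the floor, among those whose locus overlapped the partner with starts farther apart 13 of 114 (11.4%), and among those that did not overlap and started farther apart 6 of 20. Partners reached the floor in 68.4%, 75.0% and 80.0% of these classes in the same order, so the low share of the overlapping lncRNAs was not matched by a low share of their partners. The sources used here do not say if counting took strand into account, so over shared exons the reads of a lncRNA and its partner cannot be told apart. Chromosomes 2, 4 and 11 together held 45.8% of the set, against 19.6% of other RefSeq lncRNA genes.

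**Figure D1:**
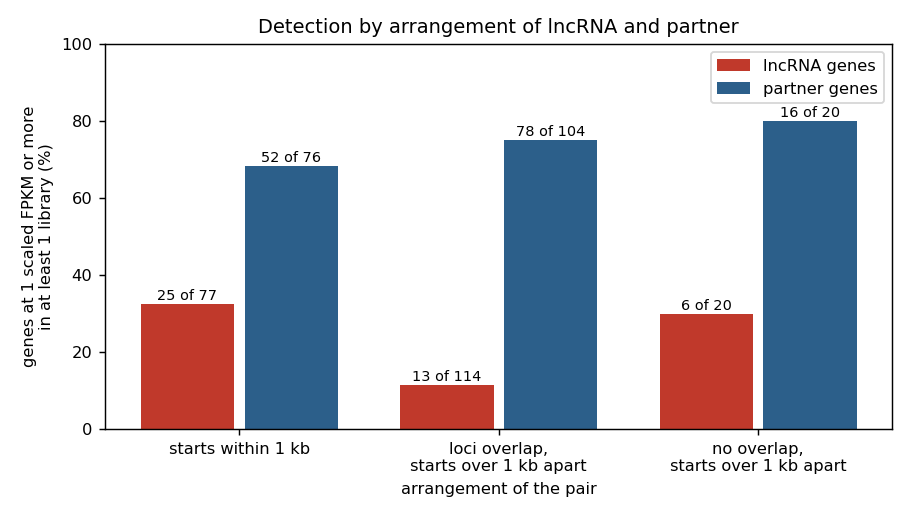
Percent of lncRNA genes (red) and of their partner genes (blue) at 1 scaled FPKM or more in at least 1 of the 6 libraries, by the arrangement of the pair; the counts stand over the bars. The lncRNAs with overlapping loci and starts over 1 kb apart have the lowest bar, 13 of 114.

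The 30 lncRNAs with the highest level in any library are described by the role of their partner. Their levels ran up to 37.3 scaled FPKM.

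**Figure D2:**
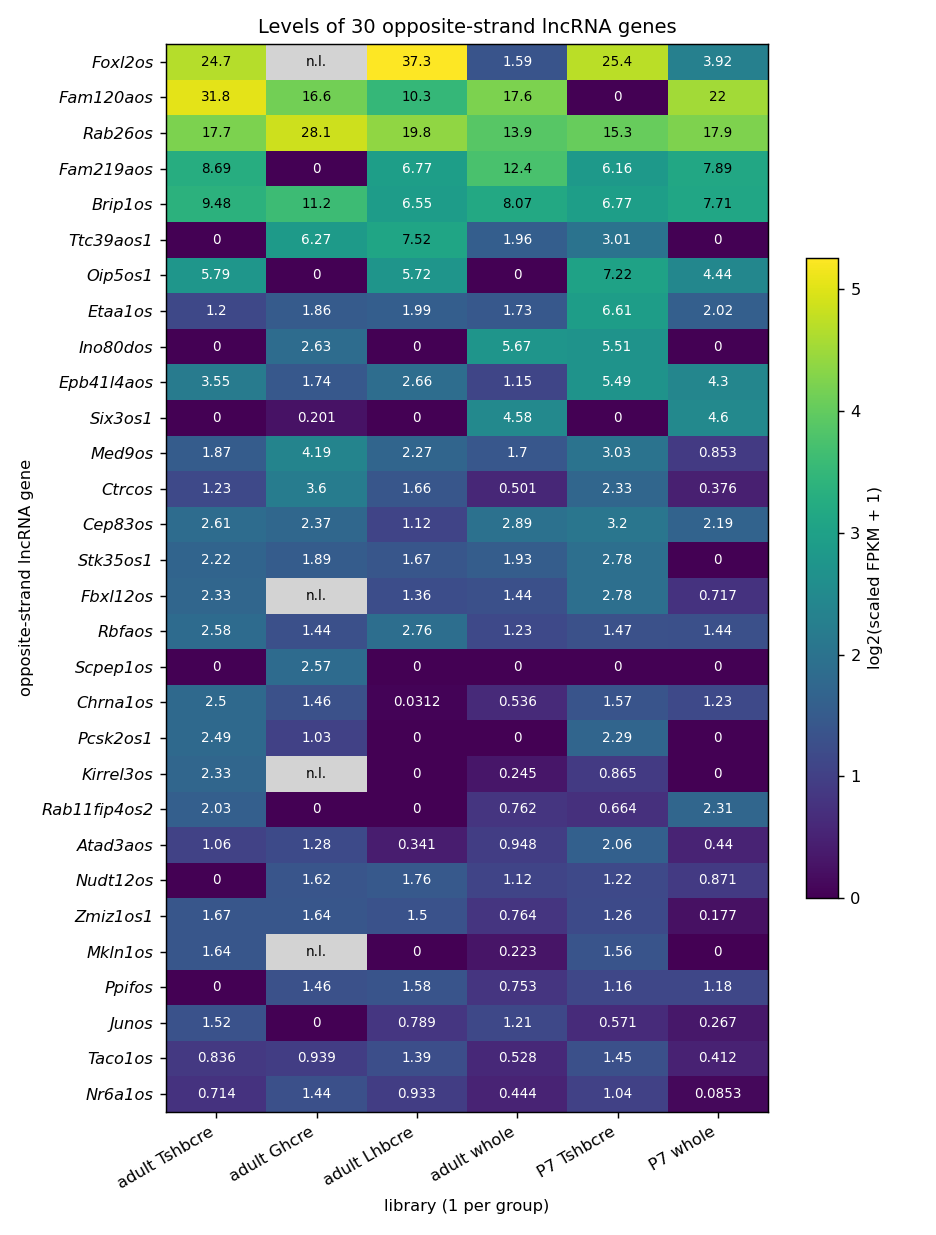
Scaled FPKM of the 30 lncRNA genes in each of the 6 libraries, 1 per group, coloured by log2(scaled FPKM + 1); n.l. means not listed in the shortened Ghcre table. Rab26os and Brip1os are above 0 in every column, Foxl2os is higher in the sorted libraries that list it and Six3os1 is higher in the whole glands.

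Among lncRNAs of transcription factor genes, Foxl2os had the highest level of the set. It was at 24.7 scaled FPKM in adult Tshbcre and 37.3 in adult Lhbcre, against 1.59 in the adult whole gland, and at 25.4 in P7 Tshbcre, against 3.92 in the P7 whole gland. The deposited bounds, which cover the assignment of reads only, were 23.4 to 26.0 in adult Tshbcre, 35.7 to 39.0 in adult Lhbcre and 1.37 to 1.82 in the adult whole gland, and 24.1 to 26.6 in P7 Tshbcre and 3.60 to 4.24 in the P7 whole gland. All sorted libraries that list it were thus above both whole glands. On the log2 scale the difference to the whole gland of the same age was 3.31 in adult Tshbcre (9.91-fold), 3.88 in adult Lhbcre (14.8-fold) and 2.42 in P7 Tshbcre (5.36-fold). With assembled transcripts it was 2.06 (4.17-fold), 2.24 (4.73-fold) and 1.62 (3.07-fold), and so under the 4-fold threshold at P7. The markers of gonadotropes summed to 3886 scaled FPKM in adult Tshbcre and 2523 in adult Lhbcre, against 831 in the adult whole gland, and to 1768 in P7 Tshbcre, against 412 in the P7 whole gland. The markers of thyrotropes summed to 1126 in adult Tshbcre and 18.7 in adult Lhbcre, against 37.8 in the adult whole gland. In P7 Tshbcre they summed to 3180, against 72.0 in the P7 whole gland. The part of either cell type in the Foxl2os difference was not tested. Xist was at 0.106 scaled FPKM in adult Tshbcre and 29.4 in adult Lhbcre, against 0.0599 in the adult whole gland, and at 62.6 in P7 Tshbcre, against 17.0 in the P7 whole gland, and the part of sex was not tested either. All 4 gonadotrope markers were above 0 in adult Tshbcre and adult Lhbcre and 3 of 4 in P7 Tshbcre, where Nr5a1 was listed at 0, Lhb was at 1278 against 312 in the P7 whole gland, and Fshb was at 482 against 85.1.

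Foxl2 itself was harder to read. Its annotated transcript was at 22.1 scaled FPKM in adult Tshbcre and listed at 0 in adult Lhbcre and the adult whole gland, and it was listed at 0 in P7 Tshbcre and at 6.24 in the P7 whole gland. With assembled transcripts, Foxl2 was at 27.5 in adult Tshbcre and 12.5 in adult Lhbcre, against 4.63 in the adult whole gland, and at 18.8 in P7 Tshbcre, against 9.23 in the P7 whole gland. On those values Foxl2 was, like Foxl2os, higher in each sorted library than in the whole gland of its age, by 5.06-fold, 2.39-fold and 1.93-fold. Foxl2os lay above Foxl2 in all 5 libraries on that measure.

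On mm39, the build of the files, Foxl2os was at chr9:98831208-98837363 on the minus strand and Foxl2 at chr9:98837660-98840179 on the plus strand, with starts 297 bases apart and no shared base. The assembled transcripts crossed that gap. Those given to Foxl2 began between positions 98837185 and 98837386, upstream of the annotated start, and those given to Foxl2os reached positions 98837706 to 98837709 in adult Tshbcre, the adult whole gland and the P7 whole gland. In those libraries the assembled transcripts of the genes overlap, and their reads cannot be told apart without strand.

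**Figure D3:**
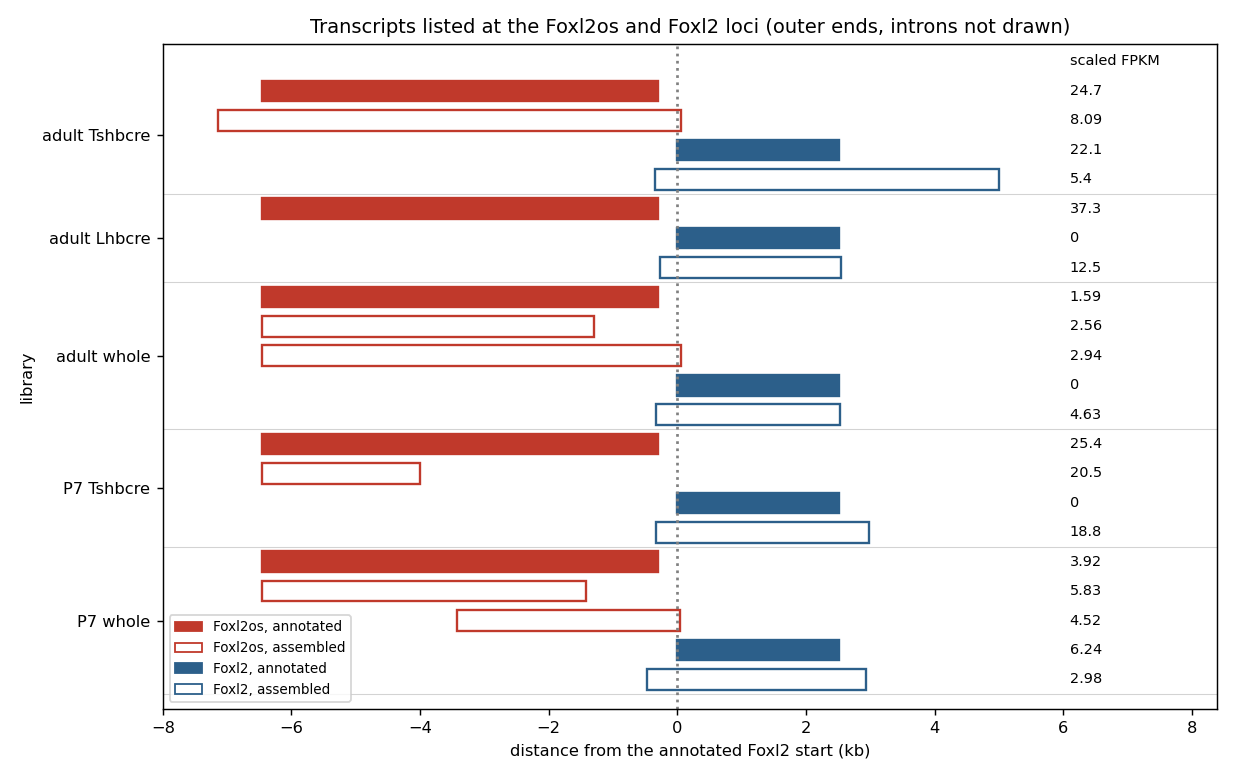
Outer ends of annotated (filled) and assembled (open) transcripts of Foxl2os (red, read leftwards) and Foxl2 (blue, read rightwards) by distance from the annotated Foxl2 start in kb, with the scaled FPKM of each at the right. The annotated Foxl2 transcript is at 0 in adult Lhbcre, the adult whole gland and P7 Tshbcre, and each of these lists an assembled Foxl2 transcript, at 12.5, 4.63 and 18.8.

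Six3os1, which in mouse retina is known to modulate the action of SIX3, went the other way. It was listed at 0 in adult Tshbcre, at 0.201 scaled FPKM in adult Ghcre and at 0 in adult Lhbcre, against 4.58 in the adult whole gland, and at 0 in P7 Tshbcre, against 4.60 in the P7 whole gland. Six3 was at 5.27, 2.53 and 2.20 scaled FPKM in adult Tshbcre, Ghcre and Lhbcre, against 14 in the adult whole gland, and at 1.96 in P7 Tshbcre, against 13.5 in the P7 whole gland. Both genes were thus lower in every sorted library than in the whole gland, and alike in whole glands of both ages. With 1 added to each level, the Six3 differences were 2.40-fold in adult Tshbcre, 4.25-fold in Ghcre, 4.70-fold in Lhbcre and 4.88-fold in P7 Tshbcre. With assembled transcripts Six3os1 was at 1.57, 0.655 and 0.915 in adult Tshbcre, Ghcre and Lhbcre, against 4.58 in the adult whole gland, and at 1.64 in P7 Tshbcre, against 8.5 in the P7 whole gland. The direction was the same, and each difference was then under 4-fold. The loci share 4789 bases, and Six3os1 lay at chr17:85909360-85925824 on mm39. Posterior lobe markers (3 genes) summed to 0.75, 1.41 and 1.84 scaled FPKM in adult Tshbcre, Ghcre and Lhbcre, against 8.19 in the adult whole gland, and to 0.795 in P7 Tshbcre, against 10.4 in the P7 whole gland. Stem and folliculostellate markers (4 genes, 3 of them listed in Ghcre) summed to 40.5, 0.500 and 4.46, against 81.5, and to 1.89 at P7, against 20.7, in the same order. Mesenchymal and pericyte markers (4 genes, 3 listed in Ghcre) summed to 13.6, 2.81 and 4.31, against 68.4, in the same order. At P7 their sums were 2.99, against 167. Sums of corticotrope and melanotrope, endothelial, immune and erythroid markers were also lower in every sorted library. Ghcre did not list all endothelial and erythroid genes. Thyrotrope and gonadotrope sums were higher in both Tshbcre libraries. The part of any of these cells in the Six3os1 difference was not tested.

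Junos, beside the gene of the AP-1 factor Jun, was at 1.52 scaled FPKM in adult Tshbcre, 0 in adult Ghcre and 0.789 in adult Lhbcre, against 1.21 in the adult whole gland, and at 0.571 in P7 Tshbcre, against 0.267 in the P7 whole gland. Jun lay far above it in every library, between 39.6 and 82.2 scaled FPKM. Zmiz1os1, beside the gene of a transcriptional coactivator, was at 1.67, 1.64 and 1.5 scaled FPKM in adult Tshbcre, Ghcre and Lhbcre, against 0.764 in the adult whole gland, and at 1.26 in P7 Tshbcre, against 0.177 in the P7 whole gland. Zmiz1 ran the opposite way, at 4.56, 8.74 and 9.5 in adult Tshbcre, Ghcre and Lhbcre, against 10.6 in the adult whole gland, and at 6.99 in P7 Tshbcre, against 11.3 in the P7 whole gland. None of the Zmiz1os1 differences between a sorted library and its whole gland reached 4-fold. With assembled transcripts its log2 differences over the adult whole gland were -0.02, -0.04 and -0.12 in adult Tshbcre, Ghcre and Lhbcre, so in adults it was not higher and the opposite pattern was gone. Nr6a1os, over the gene of an orphan nuclear receptor of germ cells and embryos, stayed between 0.0853 in the P7 whole gland and 1.44 in adult Ghcre.

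Ino80dos and Med9os lie beside genes of the INO80 chromatin remodelling complex and of the Mediator complex. Ino80dos was listed at 0 in adult Tshbcre, at 2.63 scaled FPKM in adult Ghcre and at 0 in adult Lhbcre, against 5.67 in the adult whole gland, and at 5.51 in P7 Tshbcre, against 0 in the P7 whole gland. Unnamed transcripts of 200 bases or more lay over its locus in all 3 libraries with a 0, with 31 in adult Tshbcre, 6 in adult Lhbcre and 28 in the P7 whole gland. With assembled transcripts Ino80dos was at 5.80 in adult Tshbcre, close to the 5.67 of the adult whole gland. It stayed at 0 in adult Lhbcre and the P7 whole gland, where none of those transcripts was held by it. Ino80d stayed between 5.61 and 9.20 in all 6 libraries. Med9os was above 0 in all 6 libraries, from 0.853 in the P7 whole gland to 4.19 in adult Ghcre.

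Of the lncRNAs beside genome maintenance genes, Brip1os had the narrowest range of the 13 named lncRNAs above 0 in all 6 libraries. Its levels were 9.48, 11.2 and 6.55 scaled FPKM in adult Tshbcre, Ghcre and Lhbcre, against 8.07 in the adult whole gland, and 6.77 in P7 Tshbcre, against 7.71 in the P7 whole gland, with 1.71-fold between the highest and the lowest on the plain scale. Brip1, the gene of a helicase that binds BRCA1, lay under it in every library, between 0.390 and 0.901. The starts are 145 bases apart and the loci do not overlap. Etaa1os, which starts 95 bases from the gene of an activator of the ATR kinase at replication forks, was highest in young sorted cells. It was at 1.20, 1.86 and 1.99 scaled FPKM in adult Tshbcre, Ghcre and Lhbcre, against 1.73 in the adult whole gland, and at 6.61 in P7 Tshbcre, against 2.02 in the P7 whole gland. For adult Tshbcre over P7 Tshbcre the difference was -1.79 on the log2 scale, or 3.46-fold, and so under the threshold. Etaa1 was also highest in P7 Tshbcre, at 1.87, and lowest in adult Tshbcre, at 0.203, but with assembled transcripts it was at 1.90 in adult Tshbcre, against 1.87 in P7 Tshbcre.

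Rab26os, beside the gene of a small GTPase of secretory granules and synaptic vesicles, was high in all libraries. It was at 17.7, 28.1 and 19.8 scaled FPKM in adult Tshbcre, Ghcre and Lhbcre, against 13.9 in the adult whole gland. It was at 15.3 in P7 Tshbcre, against 17.9 in the P7 whole gland, with a 2.02-fold range on the plain scale over all libraries. Rab26 was at or under 2.02 in every library and listed at 0 in 3 of them. With assembled transcripts Rab26 reached 3.14, in the adult whole gland, still under Rab26os. Rab26os is short, with 1 transcript of 295 bases at chr17:24747225-24747718 on mm39, and it ends 309 bases from Rab26 without overlap.

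**Figure D4:**
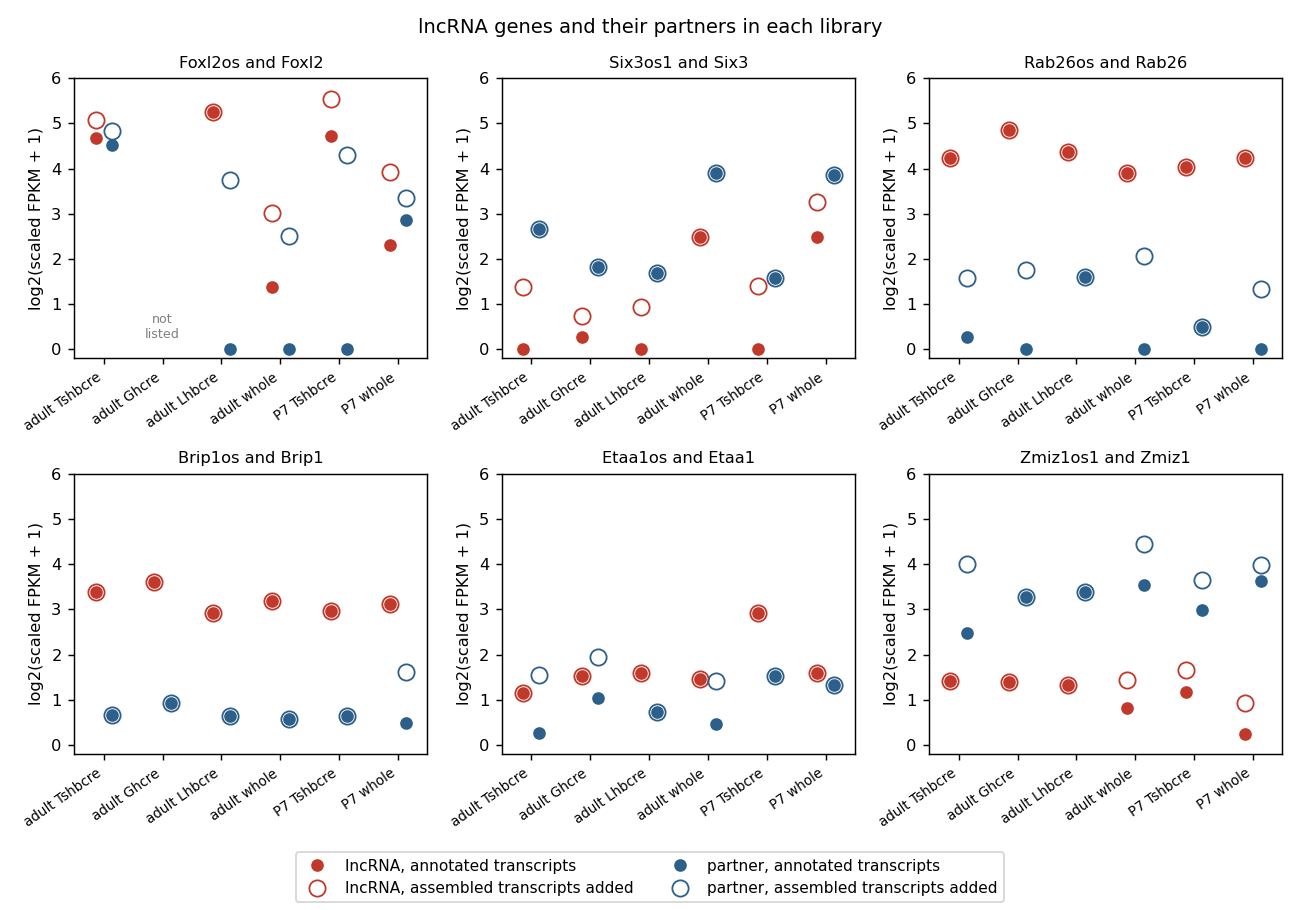
log2(scaled FPKM + 1) of 6 lncRNAs (red) and their partners (blue) in each library; filled points are annotated transcripts and open circles have assembled transcripts added. Rab26os and Brip1os lie above their partners in every library, Zmiz1os1 lies below its partner, and the filled Foxl2 points at 0 have open circles well above 0.

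Other lncRNAs beside genes of secretion, membranes and the cell surface were low. Pcsk2os1, over the gene of prohormone convertase 2, which cuts proopiomelanocortin, was at 2.49 scaled FPKM in adult Tshbcre, 1.03 in adult Ghcre and 0 in adult Lhbcre and the adult whole gland, and at 2.29 in P7 Tshbcre, against 0 in the P7 whole gland. Pcsk2 was at 15.5, 2.96 and 27.7 in adult Tshbcre, Ghcre and Lhbcre, against 17.0 in the adult whole gland, and at 7.66 in P7 Tshbcre, against 12.3 in the P7 whole gland. Unnamed transcripts lay over the Pcsk2os1 locus in the adult and the P7 whole gland. Their lengths were 1823 and 1812 bases, at 13.9 and 12.8 scaled FPKM. None was held by Pcsk2os1, which stayed at 0 in both whole glands with assembled transcripts. Its listings at 0 there were still not read as absence. Chrna1os, beside the gene of the muscle acetylcholine receptor alpha subunit, ran from 0.0312 in adult Lhbcre to 2.50 in adult Tshbcre, with 5.76 in P7 Tshbcre once assembled transcripts were added. Chrna1 had its highest value, 2.0, in adult Lhbcre. Rab11fip4os2, Kirrel3os and Scpep1os peaked at 2.31, 2.33 and 2.57, and Scpep1os was listed above 0 in adult Ghcre only.

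The lncRNAs beside mitochondrial genes stayed low. Rbfaos, whose partner encodes an assembly factor of the mitochondrial ribosome, was at 2.58, 1.44 and 2.76 scaled FPKM in adult Tshbcre, Ghcre and Lhbcre, against 1.23 in the adult whole gland, and at 1.47 in P7 Tshbcre, against 1.44 in the P7 whole gland. It is 1 of the 5 pairs with unmatched strand. Atad3aos, beside the gene of an inner membrane ATPase, peaked at 2.06 in P7 Tshbcre, the library in which Atad3a was lowest, at 0.786. Neither held with assembled transcripts, where Atad3aos peaked at 3.14 in the P7 whole gland and Atad3a was at 7.65 in P7 Tshbcre and lowest, at 3.36, in adult Tshbcre. Ppifos, over the gene of cyclophilin D, and Taco1os, beside the gene of a translational activator of cytochrome oxidase subunit I, peaked at 1.58 and 1.45.

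Among the remaining pairs, Fam120aos was the highest lncRNA in adult Tshbcre, at 31.8 scaled FPKM, with 16.6 in adult Ghcre and 10.3 in adult Lhbcre, against 17.6 in the adult whole gland. It was listed at 0 in P7 Tshbcre, against 22 in the P7 whole gland. In P7 Tshbcre an unnamed transcript of 205 bases at 26.8 scaled FPKM lay over its locus but was not held by it. With assembled transcripts Fam120aos thus stayed at 0 there, which was still not read as absence. Fam120a, the gene of an RNA-binding scaffold protein, kept between 12.7 and 38.4 in all 6 libraries. Their starts are 52 bases apart and they share 167 bases.

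Fam219aos was at 8.69 scaled FPKM in adult Tshbcre, 0 in adult Ghcre and 6.77 in adult Lhbcre, against 12.4 in the adult whole gland, and at 6.16 in P7 Tshbcre, against 7.89 in the P7 whole gland. In Ghcre no unnamed transcript lay over its locus. Ghcre was the only library with Fam219aos listed at 0, while Fam219a was at 7.41 there. Oip5os1, also known as Cyrano, a conserved lncRNA that directs the decay of the microRNA miR-7 in mouse, was at 5.79, 0 and 5.72 in adult Tshbcre, Ghcre and Lhbcre, against 0 in the adult whole gland, and at 7.22 in P7 Tshbcre, against 4.44 in the P7 whole gland. With assembled transcripts it was in a narrow range, at 5.79, 7.67 and 5.72 in adult Tshbcre, Ghcre and Lhbcre, against 5.06 in the adult whole gland, and at 7.22 in P7 Tshbcre, against 8.46 in the P7 whole gland. Oip5, a centromere gene of dividing cells, did not exceed 0.290.

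Ttc39aos1 was listed at 0 in adult Tshbcre and the P7 whole gland and reached 7.52 in adult Lhbcre, and with assembled transcripts it ran from 3.69 in the P7 whole gland to 9.22 in adult Tshbcre. Ctrcos was above 0 in all 6 libraries, from 0.376 in the P7 whole gland to 3.60 in adult Ghcre, while Ctrc, the gene of a pancreatic digestive protease, was listed at 0 in all of them. Epb41l4aos ran from 1.15 in the adult whole gland to 5.49 in P7 Tshbcre. Cep83os, whose start adjoins that of the gene of a cilium anchoring protein, ran from 1.12 in adult Lhbcre to 3.20 in P7 Tshbcre. Cep83 had its highest value, 2.07, in adult Lhbcre, but with assembled transcripts it had it in the P7 whole gland, at 3.08. Stk35os1, Fbxl12os, Mkln1os and Nudt12os peaked between 1.64 and 2.78.

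Each lncRNA was set against its partner in the same library. Of the 45 lncRNAs at the floor, 4 lay above their partner in every library that listed them, namely Rab26os, Brip1os, Etaa1os and Ctrcos, and 22 lay below in every one. With assembled transcripts 5 lay above (Foxl2os, Rab26os, Brip1os, Oip5os1 and Ctrcos) and 27 below. Rab26os, Brip1os and Ctrcos are on both lists. Ctrc was listed at 0 with an upper bound of 0 in every library, so Ctrcos could only lie above it and its place on these lists is no comparison.

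Listings at 0 were common. For 24 of the 45 lncRNAs at the floor, 54 values were listed at 0 in a library. In 41 of these 54 an unnamed transcript of 200 bases or more lay over the locus, with strand not considered. The libraries listed from 273226 to 953764 unnamed transcripts of any length. The same share was not computed for values above 0 or for other genes, so this count does not say what a listing at 0 hides. In most of those 41 values no such transcript was held by the lncRNA. Among these were Pcsk2os1 and Scpep1os in both whole glands, Fam120aos in P7 Tshbcre, and Ino80dos in adult Lhbcre and the P7 whole gland. Of the 45, 6 reached the floor in all 6 libraries: 15 reached it in 1 library only.

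Few lncRNAs were apart between libraries, and most calls had 1 of the libraries listed at 0. The 3 adult sorted comparisons share the adult whole gland and other pairs of comparisons share a library too, so they are not independent. In adult Tshbcre over the adult whole gland 31 lncRNAs were compared and 4 were apart, 2 higher (Foxl2os and Oip5os1) and 2 lower (Ino80dos and Six3os1), where 7.06% of all genes were apart, 3.22% higher and 3.84% lower. In adult Lhbcre over the adult whole gland the same 4 names were apart in the same directions, of 27 compared, where 9.31% of all genes were, 3.85% higher and 5.46% lower. In adult Ghcre over the adult whole gland Fam219aos and Six3os1 were lower, of 28 compared, where 9.8% of all genes were apart, 4.44% higher and 5.36% lower. In P7 Tshbcre over the P7 whole gland 5 of 31 were apart, with Foxl2os, Ino80dos and Ttc39aos1 higher and Fam120aos and Six3os1 lower, where 9.38% of all genes were, 3.26% higher and 6.11% lower. Of the lncRNAs compared, 12.9% were apart in adult Tshbcre, 7.14% in adult Ghcre, 14.8% in adult Lhbcre and 16.1% in P7 Tshbcre. Among other autosomal non-coding genes 19.3%, 23.2%, 23.0% and 22.3% were, in the same order. A lncRNA enters such a count only if it reached the floor in a library compared, so the counts are not over all 216.

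In the adult whole gland over the P7 whole gland 2 of 23 were apart, with Ino80dos higher and Oip5os1 lower, where 6.59% of all genes were, 3.28% higher and 3.31% lower. In adult Tshbcre over P7 Tshbcre 3 of 36 were apart, with Fam120aos higher and Ino80dos and Ttc39aos1 lower, where 8.21% of all genes were, 4.64% higher and 3.57% lower. By age 8.70% and 8.33% of the lncRNAs compared were thus apart, against 23.7% and 20.1% of other autosomal non-coding genes, in the same order. Foxl2os was at 24.7 scaled FPKM in adult Tshbcre, against 25.4 in P7 Tshbcre. Over lncRNAs above 0 in both libraries, the only calls were Foxl2os higher in adult Tshbcre, adult Lhbcre and P7 Tshbcre and Six3os1 lower in adult Ghcre, each over its whole gland. By that count 1.44%, 2.43%, 3.16% and 2.79% of all genes were apart in adult Tshbcre, adult Lhbcre, P7 Tshbcre and adult Ghcre. By age none of the lncRNAs above 0 in both libraries was apart, where 1.14% of all genes were in the adult over the P7 whole gland and 1.31% in adult over P7 Tshbcre.

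The median log2 difference of the lncRNAs compared was 0.32 in adult Tshbcre, 0.45 in adult Ghcre and 0.36 in adult Lhbcre, each over the adult whole gland, and 0.84 in P7 Tshbcre over the P7 whole gland. Other autosomal non-coding genes had medians of 0.21, 0.56, 0.28 and 0.63 in the same comparisons. The medians of all genes lay between -0.02 and 0.004, but the scaling itself brings them near 0. Positive medians were thus shared by non-coding genes at large. They depend on the scaling and on entry at the floor, which more of the lncRNAs reached in the sorted libraries. With FPKM as deposited the median of all genes was -0.46 in Ghcre and -0.47 in P7 Tshbcre. In Ghcre, libraries scaled to an equal sum instead moved the median of all genes to 1.09, and the share of higher among all genes apart to 79.2%, against 45.3% here. In Lhbcre the same scaling moved that median to 0.37 and that share to 52.7%, against 41.3%. In P7 Tshbcre the share was 24.6% with FPKM as deposited, against 34.8%.

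Lists of pituitary genes give the setting. Of 24 transcription factor genes of pituitary development, 20 were compared in adult Tshbcre over the adult whole gland, with Foxl2, Gata2, Isl1 and Nr5a1 higher and Tbx19 lower. Of 17 compared in adult Ghcre, 5 were lower, Nr5a1, Pax7, Six3, Sox2 and Tbx19. Of 19 compared in adult Lhbcre, Neurod1 and Nr5a1 were higher and Six3 and Sox2 lower. Of 22 compared in P7 Tshbcre over the P7 whole gland, 6 were lower, Foxl2, Lhx3, Nr5a1, Six3, Sox2 and Tbx19. With assembled transcripts 2 were higher and 3 lower. Foxl2, Six3, Otx2, Pax6 and Zeb2 are both on this list and partners of a lncRNA. Otx2os1 did not exceed 0.224 scaled FPKM, Pax6os1 did not exceed 0.0957, and Zeb2os was not above 0 in any library that listed it.

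Whether a lncRNA and its partner differed in the same direction was counted over pairs in which both reached the floor in a library compared. The counts were 12 of 23 pairs (52.2%) in adult Tshbcre, 10 of 24 (41.7%) in adult Ghcre and 13 of 22 (59.1%) in adult Lhbcre, each over the adult whole gland, and 13 of 25 (52%) in P7 Tshbcre over the P7 whole gland. By age they were 12 of 19 (63.2%) in the adult whole gland over the P7 whole gland and 13 of 30 (43.3%) in adult Tshbcre over P7 Tshbcre. For other non-coding genes and the coding gene they overlap, the shares were 50.8%, 48.4%, 48.6%, 51.6%, 55.9% and 51.6% in the same order. Other RefSeq lncRNA genes on the opposite strand of a coding gene had 44.7%, 46%, 41.9%, 47.7%, 61.3% and 44.6%. The shares of the named pairs lay above those of the overlapping pairs in 4 comparisons and under them in 2. Both genes were apart in the same direction for 1 pair in each sorted library over its whole gland, Foxl2os and Foxl2 in adult Tshbcre and Six3os1 and Six3 in adult Ghcre, adult Lhbcre and P7 Tshbcre. In P7 Tshbcre Foxl2os and Foxl2 were apart in opposite directions, with Foxl2 listed at 0.

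**Figure D5:**
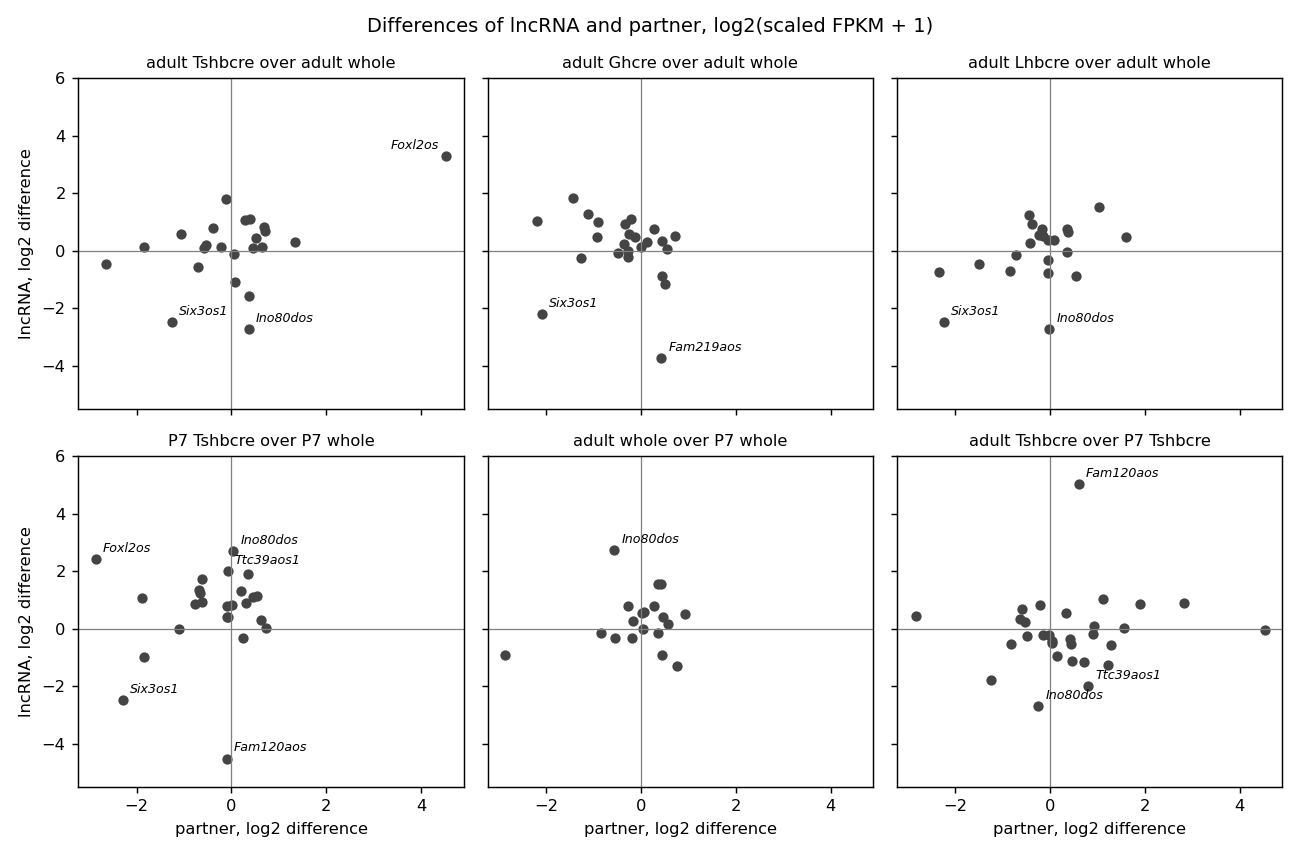
Differences of log2(scaled FPKM + 1) of the partner (horizontal) and the lncRNA (vertical) for the pairs compared, in each of the 6 comparisons; lncRNAs that differ by at least 2 on the log2 scale, which is 4-fold, are named. Six3os1 lies at the lower left in the 4 comparisons of sorted with whole gland, Foxl2os lies at the upper right in adult Tshbcre, and the other points spread over all sides.

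Pair by pair, over the 6 comparisons and with no floor, Fam120aos and Etaa1os ran with their partner in all 6. Zmiz1os1 ran against its partner in all 6. Some of these comparisons had a gene under the floor in both libraries. Etaa1 was at 0.203 scaled FPKM in adult Tshbcre and 0.383 in the adult whole gland. Zmiz1os1 was at 0.764 in the adult and 0.177 in the P7 whole gland. The other 27 of the 30 pairs were mixed or had no difference in some comparison. These 3 patterns did not hold with assembled transcripts, where same directions numbered 3 of 6 for Fam120aos, 2 of 6 for Etaa1os and 4 of 6 for Zmiz1os1. Nr6a1os ran with Nr6a1 in 5 of 6 on both measures, but its annotated level was under the floor in both libraries in some of these comparisons. Mkln1os ran with Mkln1 in 4 of 5 comparisons, and in 5 of 5 with assembled transcripts. Nudt12os ran with Nudt12 in 3 of 6, and in 6 of 6 with them.

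For the 13 named lncRNAs above 0 in all 6 libraries, coding genes were ranked by Pearson's r of log2(scaled FPKM + 1) over the 6 libraries, as a description only, since 6 points and 8845 genes give high values for any pattern and the points share their depth and cell make-up. The gene most like Rab26os was Surf6 (r of 0.98), and Mboat2 was most like Brip1os (0.99) and Rnf112 most like Etaa1os (0.99). No own partner ranked above 246th of the 8845 genes, the place of Etaa1 for Etaa1os (0.78). Rbfa was 434th for Rbfaos (0.70) and Nr6a1 785th for Nr6a1os (0.61). Of the 11 partners ranked, 5 had a positive r and 6 a negative one, with Cep83 lowest at 8382nd for Cep83os (-0.73).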

How the data were processed

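The authors deposited 1 isoform table per library, with FPKM and a coverage signal for each transcript. The submitters' processing notes name FastQC, Bowtie2, Cufflinks and mm39 without versions. Ribosomal RNA was depleted from 250 ng of RNA, per the labels' protocols. The sources do not say if strand was used in counting. Within a table the deposited coverage signal was FPKM times a constant, which gave relative depth. Read numbers are not given, so no floor for a 0 could be computed.

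From the deposited FPKM, a gene's level was the sum over its annotated transcripts, divided by a median-of-ratios factor over 5808 genes. The factors were 1.00 (adult Tshbcre), 0.758 (adult Ghcre), 0.967 (adult Lhbcre), 1.10 (adult whole), 1.42 (P7 whole) and 0.976 (P7 Tshbcre). The pseudocount was 1. In a further set of values, unnamed transcripts of 200 nt or more were added where their Cufflinks gene held 1 named gene. Such transcripts were 65.8% of the unnamed ones in the adult whole gland, but 4.25% in Lhbcre, so the addition is uneven. Strand came from RefSeq on GRCm38, matched by transcript or else by name, and from GENCODE where RefSeq gave none. The 30 lncRNAs with the highest value in any library were named. The members and lists were chosen with earlier results of these data known. Alternatives were other scalings, a pseudocount of 0.1, no filter on low values, genes above 0 in both libraries, and assembled transcripts. Calling was checked on simulated data. Python 3.11.15, pandas 2.3.3, numpy 2.4.6 and matplotlib 3.10.9 were used.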

Additional observations from a re-analysis of the deposited data

Results flagged for a closer look

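For 2 genes the difference ran in opposite directions under the same contrast, which put them on this list; with 1 library per group the difference between the contrasts was not tested, and each case rests on a library listed at 0, so the sizes are set by the pseudocount of 1. On the log2 scale, Foxl2 differed by 4.53 in adult Tshbcre over the adult whole gland and by -2.86 in P7 Tshbcre over the P7 whole gland. By age, Foxl2 differed by -2.86 in the adult whole gland over the P7 whole gland and by 4.53 in adult Tshbcre over P7 Tshbcre. With assembled transcripts Foxl2 was higher in the sorted cells at both ages, by 2.34 in adults and 0.95 at P7. By age its directions stayed opposite with them. The difference was -0.86 in the adult whole gland over the P7 whole gland and 0.53 in adult Tshbcre over P7 Tshbcre. With annotated transcripts only, Ino80dos differed by -2.74 in adult Tshbcre over the adult whole gland and by 2.70 in P7 Tshbcre over the P7 whole gland. By age, Ino80dos differed by 2.74 in the adult whole gland over the P7 whole gland and by -2.70 in adult Tshbcre over P7 Tshbcre. With assembled transcripts its adult Tshbcre difference was 0.03 and its P7 Tshbcre difference was still 2.70.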

How the results depend on the processing

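No paired analysis was possible because each group had 1 library, and none could be left out. Of the counts under alternatives, 46 kept within the margin used (1.5 times) and 31 moved. The lncRNAs apart, over the whole gland of the same age, numbered 11 in adult Tshbcre, 8 in adult Ghcre and 13 in P7 Tshbcre with a pseudocount of 0.1, which widens the difference of low values. By age they numbered 4 in whole glands and 10 in Tshbcre with that pseudocount. Over genes above 0 in both libraries they numbered 1 in each of adult Tshbcre, Ghcre and Lhbcre and P7 Tshbcre, and 0 by age in whole glands and in Tshbcre. An equal sum gave 6 in Ghcre, FPKM as deposited gave 3 in P7 Tshbcre, and assembled transcripts gave 5 in adult over P7 Tshbcre. With assembled transcripts 75 lncRNAs reached the floor, against 45. Pairs with the same direction, with no filter on low values, were 61 of 104 in adult Tshbcre, 41 of 87 in adult Ghcre, 54 of 96 in adult Lhbcre, 48 of 103 in P7 Tshbcre, 55 of 98 by age in whole glands and 50 of 96 by age in Tshbcre. More pairs are counted there by construction. With assembled transcripts they were 27 of 50 in adult Tshbcre, 20 of 44 in Ghcre, 16 of 37 in adult Lhbcre, 23 of 41 in P7 Tshbcre, 22 of 39 by age in whole glands and 30 of 53 by age in Tshbcre. Over genes above 0 in both libraries they were 8 of 15 in P7 Tshbcre and 8 of 19 by age in Tshbcre. An equal sum gave 31 of 38 in Ghcre and 7 of 14 by age in whole glands, and FPKM as deposited gave 12 of 19 in Ghcre and 7 of 26 in P7 Tshbcre. The cause was not tested. In 3 cases assembled transcripts reversed a named difference (log2): Ino80dos to 0.029 in adult Tshbcre over the adult whole gland and to 0.064 in adult over P7 Tshbcre, and Ttc39aos1 to 0.50 in adult over P7 Tshbcre. Oip5os1 over the adult whole gland was 0.16 in adult Tshbcre and 0.15 in adult Lhbcre with them. The precision of single values rests on the deposited bounds, and differences between animals could not be measured.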
